A study of Homo sapiens with 6 samples.

Results

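H3K27me3 and H3K4me3 were compared gene by gene in G401 cells kept in DMSO, to ask how many genes carried both modifications, the state called bivalency, and which genes these were. The counts of both ChIP-seq libraries were scaled by their library totals to CPM, reads of a gene relative to all reads counted in the library, and set over the CPM of the DMSO input, the same chromatin sequenced without an antibody, as log2((mark + 0.05)/(input + 0.05)). A gene was called positive for a mark at a log2 value of at least 0.5. Of 56638 genes in the table, the 21263 with at least 100 input counts in DMSO and MAK683 together were compared. Both marks were found at 253 genes (1.19%), H3K27me3 only at 3983 (18.7%), H3K4me3 only at 6823 (32.1%) and neither at 10204 (48%).

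G401 is an established line from a malignant rhabdoid tumor. It is known to have lost SMARCB1, a core subunit of the SWI/SNF chromatin remodelling complex, and SMARCB1 had 0 input counts in both treatments. Cells were treated for 3 days with DMSO, the solvent control, or with 3 µM MAK683, a compound that binds the EED subunit of PRC2. Each treatment had 1 library each for H3K27me3, H3K4me3 and input, 6 in all, with totals between 13308099 and 21281877 counts. There was thus no replicate check, and no p-value was computed. Intervals of single genes cover counting error only. Those of shares and medians are taken over genes, which share the libraries and are not independent, and cover no variation between samples.

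H3K27me3 is placed by PRC2 and is known for broad domains over silent developmental genes, where PRC1 can bind it. H3K4me3 is placed by COMPASS-type methyltransferases and forms narrow peaks at the promoters of active genes and at many CpG-rich promoters. Genes that carry both are well known in embryonic stem cells, where many encode transcription factors of later lineages and are silent but can be activated during differentiation. In a bulk library the 2 marks may lie on the same nucleosomes, on the 2 alleles or in different cells, and the counts do not tell these apart. The counts cover whole genes, so a narrow H3K4me3 peak is diluted in a long gene, and both values of a gene are divided by the same input count.

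The marks were found apart far more often than together. Of the 4236 H3K27me3-positive genes (19.9% of those compared), 253 also carried H3K4me3 (5.97%, exact Clopper-Pearson interval from 5.28% to 6.73%). Among the 17027 H3K27me3-negative genes, 40.1% carried H3K4me3. Seen from the other mark, 3.58% of the 7076 H3K4me3-positive genes (33.3% of those compared) carried H3K27me3. Across the 21263 genes the Spearman rho of the 2 log2 values was -0.47, a description over genes that share the 3 libraries and are not independent, and it lay between -0.35 and -0.55 within 6 classes of gene length. In the 10% of genes with the lowest H3K27me3 over input, 64.4% were H3K4me3-positive. This share was 3.62% in the ninth of the 10 groups and 8.27% in the highest one, and the median gene length in these groups was 78.0 and 33.2 kb. The number of genes with both marks depends on where the scale has its zero. The median log2 value over all compared genes was -0.75 for H3K27me3 and -0.25 for H3K4me3, and 638 genes carried both marks when these medians were set to 0, with 454 under median-of-ratios factors and 523 under TMM factors. All 253 genes were among them in each case.

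**Figure D1:**
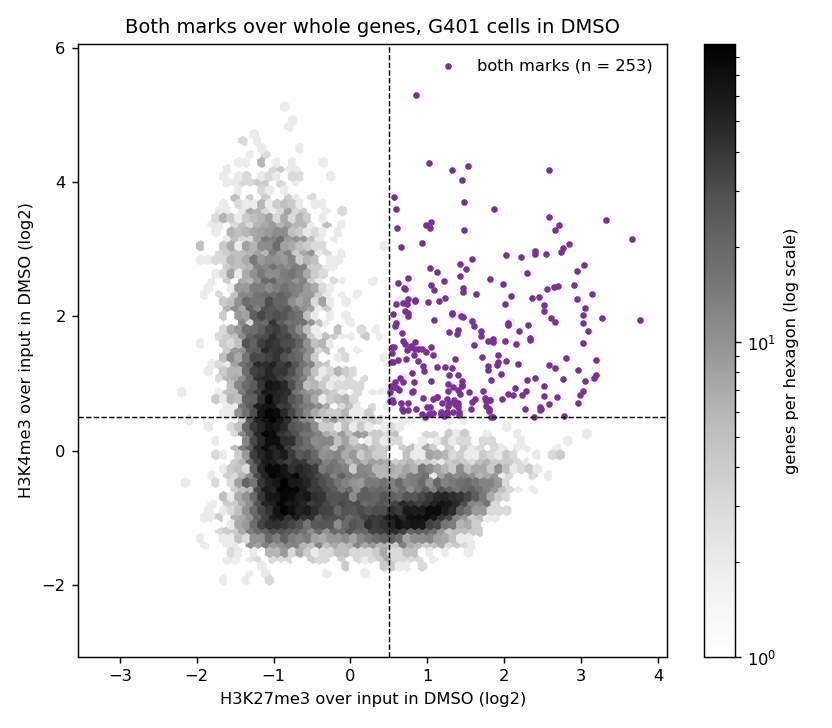
H3K27me3 over input (x axis, log2) against H3K4me3 over input (y axis, log2) for the 21263 compared genes in DMSO, as hexagons shaded by the number of genes on a log scale. Dashed lines mark 0.5 on both axes. Most genes lie along the 2 arms of an L, and the 253 genes with both marks (purple points) are spread thinly over the upper right field up to 3.77 for H3K27me3 and 5.30 for H3K4me3.

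In the genes with both marks the median log2 value was 1.42 for H3K27me3, with quartiles of 0.94 and 2.22, and 1.43 for H3K4me3, with quartiles of 0.84 and 2.24. The genes with H3K27me3 only had a median H3K27me3 of 1.03, and those with H3K4me3 only a median H3K4me3 of 1.51. H3K4me3 was the higher value at 121 of the 253 genes, and the values were within 0.5 of each other at 90 and further apart at 163. Which mark is the higher depends on the scale between the libraries. With TMM factors the medians of the same 253 genes were 2.13 and 1.48, and H3K4me3 was the higher value at 69. With median-of-ratios factors they were 2.02 and 1.54, with H3K4me3 higher at 82. Both values reached 1 at 119 genes and 2 at 31. For 159 genes (0.748% of those compared) the lower ends of both 95% intervals were at or above 0.5, and for all 253 they lay above the input level. The genes had few input counts, with a median of 120 in DMSO against 325 for all compared genes, and 28 had fewer than 50.

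The genes with the highest smaller value of the 2 marks, among protein-coding genes with at least 50 DMSO input counts and mostly unshared spans, included several known regulators of development. SOX4, an HMG-box transcription factor of progenitor cells (chromosome 6, 21593982 to 21598850, GRCh37), had 415 H3K27me3, 544 H3K4me3 and 50 input counts in DMSO. Its log2 value was 2.85 for H3K27me3 (interval from 2.44 to 3.32) and 3.08 for H3K4me3 (2.69 to 3.55). Both marks were thus far above the input level. With TMM factors the values were 3.55 and 3.14. MEX3B, which encodes an RNA-binding protein (chromosome 15, 82334119 to 82338460), had 500, 464 and 53 counts in the same order, with log2 values of 3.03 and 2.77. NKX3-2, a homeobox gene of cartilage development (chromosome 4, 13542454 to 13546132), had 392, 686 and 52 counts, with log2 values of 2.71 and 3.36. KLF4, a zinc finger factor known from reprogramming (chromosome 9, 110247133 to 110252763), had 550, 506 and 62 counts, with log2 values of 2.95 and 2.67.

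Several of the 15 genes with the highest values are known from the nervous system. NEUROD2, a bHLH factor of cortical neurons (chromosome 17, 37759789 to 37766030), had 477 H3K27me3, 794 H3K4me3 and 79 input counts, with log2 values of 2.40 for H3K27me3 and 2.98 for H3K4me3. NR4A2, a nuclear receptor needed by dopaminergic neurons (chromosome 2, 157180949 to 157198860), had the most counts of the 15 genes, 909, 1611 and 171, with log2 values of 2.22 (interval from 1.99 to 2.47) and 2.89 (2.67 to 3.13). With TMM factors the values of NR4A2 were 2.93 and 2.95, so the order of its marks is not settled. At TUBB2B, a neuronal beta-tubulin, the values were 2.54 and 2.93, and at PRDM13, a zinc finger factor of neuronal specification, 2.91 and 2.47. LHX3, a LIM homeobox gene of motor neurons and the pituitary, had 2.52 and 2.18. MARCKS, a substrate of protein kinase C (496, 290 and 52 counts), had 3.05 (2.65 to 3.51) for H3K27me3 and 2.12 (1.71 to 2.60) for H3K4me3, and H3K27me3 was also the higher value with TMM factors (3.76 and 2.18). ARC, SCRT1, C2CD4A, UNCX and TCHH made up the rest of the 15, with smaller values between 2.27 and 2.45.

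The genes with a single mark show the contrast. DBX1, a homeobox gene of spinal interneurons (chromosome 11, 20177701 to 20182021), had 489 H3K27me3, 69 H3K4me3 and 51 input counts, with log2 values of 3.05 for H3K27me3 and 0.10 for H3K4me3. Its H3K27me3 was as high as at MARCKS, and the interval of its H3K4me3 value (-0.44 to 0.65) included the input level. EMX2, a homeobox gene of cortex and kidney (chromosome 10, 119301956 to 119309057), had 473, 61 and 55 counts, with values of 2.90 and -0.19. BARHL2, SFRP2 and TFAP2B had H3K27me3 values of 2.61, 1.89 and 2.35 and H3K4me3 values of -0.33, -1.05 and -0.57. POTEJ (1.24 and -1.79) belongs to a family of near-identical copies that can share reads, so its values are uncertain. On the other side, HEXIM1, an inhibitor of the elongation factor P-TEFb (chromosome 17, 43225842 to 43229466), had 7 H3K27me3, 1558 H3K4me3 and 63 input counts, with values of -3.19 and 4.27. SPRY1 had -1.62 and 5.24, MYC -1.73 and 4.80, and BAMBI -1.54 and 5.08. The genes with neither mark and the most input were very long genes such as CNTNAP2 (chromosome 7, 145813094 to 148118090), with 17361, 22025 and 25752 counts and values of -0.76 and -0.56.

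The genes next to the threshold were picked for an H3K4me3 value close to 0.5. IHH, DUSP4 and SCN3B lay just inside with H3K4me3 values of 0.50, 0.51 and 0.51, and their H3K27me3 values were 1.86, 1.82 and 0.97. LMO2 and KCTD12 lay just outside with H3K4me3 values of 0.50 (interval from 0.33 to 0.66) and 0.49 (0.14 to 0.85), and SPATA4 with 0.49, and their H3K27me3 values were 1.79, 1.72 and 0.53 in this order. The intervals of these genes reach across the threshold, so that membership at the edge is not settled at this depth.

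Genes with both marks were short. Among the 216 of 253 that could be matched to the annotation the median length was 11.2 kb, against 36.6 kb for all matched genes, 60.3 kb for H3K27me3 only and 23.3 kb for H3K4me3 only. Genes of at most 20 kb were 162 of these 216, against 32.1% of all matched genes. The share with both marks was 5.38% among genes of up to 5 kb (35 of 650), 3.78% from 5 to 10 kb, 2.14% from 10 to 20 kb, 0.94% from 20 to 50 kb, 0.31% from 50 to 100 kb and 0.083% above 100 kb (3 of 3622). Of the H3K27me3-positive genes, 25.2% carried H3K4me3 in the shortest class (18.2% to 33.2%) and 0.31% in the longest (0.063% to 0.89%). H3K4me3 over whole genes fell with length also where H3K27me3 was absent, since the median H3K4me3 value of genes with H3K4me3 only went from 3.28 in the shortest class to 0.73 in the longest. Their share of all genes above 100 kb was 6.13%, so the length of a gene and the absence of a promoter peak cannot be told apart in these counts.

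**Figure D2:**
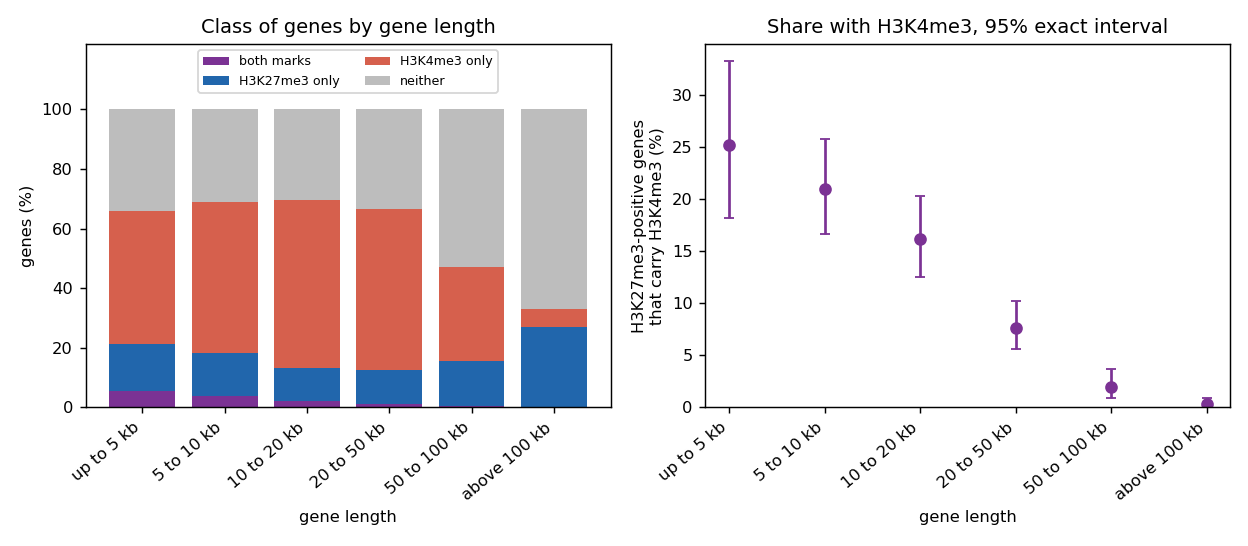
Left, share of genes (%) in each of the 4 classes by gene length in kb. Right, share of H3K27me3-positive genes that carry H3K4me3 (%), with 95% exact intervals as bars, which falls from 25.2% in genes of up to 5 kb to 0.31% in genes above 100 kb.

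Of the 216 matched genes, 203 were protein-coding and 12 were lncRNA genes. The whole span was shared with no other gene in 57.9% of them, against 32.9% of all matched genes. The genes were spread over the chromosomes, with the largest shares on chromosome 6 (26 of 831, 3.13%) and chromosome 2 (26 of 1095, 2.37%) and the smallest on chromosome 22 (1 of 388, 0.26%). Among the next compared genes on either side of a gene with both marks, 26.9% carried H3K27me3 only, against 16.0% around all genes. Both marks were carried by 4.17%, against 1.33%. Around genes with H3K27me3 only these shares were 50.8% and 2.24%.

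Developmental transcription factors took up a large share of the class. In 7 lists of such genes (HOX, homeobox and PAX, forkhead, SOX, T-box, GATA and lineage bHLH) 173 genes were compared, and 41 of them (23.7%) carried both marks, against 1.19% of all compared genes. A further 52 carried H3K27me3 only, 41 H3K4me3 only and 39 neither. Turned round, these lists held 16.2% of the genes with both marks (11.9% to 21.3%), 1.31% of those with H3K27me3 only, 0.60% of those with H3K4me3 only and 0.814% of all compared genes. They are short genes, with a median of 11.3 kb, but the contrast was also seen at matched lengths. From 5 to 10 kb, 17 of 49 developmental factors (34.7%) and 51 of 1748 other genes (2.92%) carried both marks. From 20 to 50 kb the numbers were 8 of 30 (26.7%) and 34 of 4421 (0.77%). None of 23 factors from 50 to 100 kb and none of 15 above 100 kb did. Of the other genes, 9 of 2926 (0.31%) and 3 of 3607 (0.083%) did, so few or none would be found among so few factors. Among H3K27me3-positive genes of 5 to 10 kb, H3K4me3 was found at 58.6% of the developmental factors (38.9% to 76.5%) and at 17.2% of the others (13.1% to 22.0%).

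Homeobox and PAX genes outside the HOX clusters gave the most members. Of 88 compared, 25 carried both marks, 30 H3K27me3 only, 21 H3K4me3 only and 12 neither, with a median of 1.41 for H3K27me3 and 0.67 for H3K4me3. IRX3, an Iroquois factor of neural and limb patterning, had 501 H3K27me3, 391 H3K4me3 and 34 input counts and log2 values of 3.66 (3.19 to 4.24) and 3.15 (2.68 to 3.74). MSX2 (362, 477 and 46 counts) had 2.77 and 3.01, and TLX3 (370, 477 and 48 counts) had 2.74 and 2.95. The input of these 3 genes was below 50 counts, so their ratios carry wide intervals. Only 9 of 39 HOX cluster genes had enough input to be compared, and they were divided evenly: HOXB7, HOXD11 and HOXD13 carried both marks, HOXA13, HOXD3 and HOXD10 H3K27me3 only, and HOXB13, HOXC4 and HOXC13 H3K4me3 only.

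In the smaller families, 5 of 29 forkhead genes carried both marks. FOXF2 (3.02 for H3K27me3 and 2.02 for H3K4me3) and FOXF1 (3.05 and 1.03) are regulators of mesenchyme, and FOXA1 (2.02 and 2.91) is a pioneer factor of endoderm. Of 20 lineage bHLH genes 4 carried both, among them the Notch targets HEY1 (2.67 and 3.28) and HEY2 (2.01 and 1.63) and the blood factor TAL1 (1.40 and 1.14). GATA3 (1.62 and 0.78) and GATA6 (1.27 and 0.88) were the members among 6 GATA genes, SOX4 the member among 7 SOX genes, and TBR1 (2.19 and 1.78) the member among 14 T-box genes. In a list of 15 compared kidney progenitor genes, taken up for the kidney origin of G401, those with both marks included OSR1 (3.27 and 1.98), HOXD11 (2.80 and 1.39) and LHX1 (1.32 and 4.18). H3K4me3 was the higher value at LHX1, and H3K27me3 at OSR1 and HOXD11. HEY1, FOXF1 and OSR1 had only 40, 39 and 41 input counts in DMSO, against 68, 61 and 114 in MAK683. A low input raises both values of a gene, so the DMSO values of these genes are uncertain.

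In lists of developmental signalling genes the share with both marks was 16.7% for the hedgehog pathway, 11.5% for WNT ligands and inhibitors and 6.25% for TGF-beta and BMP genes. Of 12 hedgehog pathway genes, the ligands SHH (2.05 and 1.91) and IHH carried both marks, whereas the receptors and transducers PTCH1, SMO and GLI1 carried H3K4me3 only and BOC, GLI2 and GLI3 H3K27me3 only. Of 26 WNT ligands and secreted inhibitors, WNT5A (1.46 and 1.99), SFRP5 (1.61 and 1.86) and WNT6 carried both. FST, an activin antagonist (478, 200 and 89 counts), and GDF7 (0.58 and 1.86) were the members among 32 TGF-beta and BMP ligands and antagonists. In lists of effector genes, both marks were found at 1 of 43 collagen genes (COL2A1, 0.69 and 1.02), 3 of 83 potassium channel genes, 1 of 90 neurotransmitter receptor genes, 2 of 64 axon guidance genes and 1 of 38 matrix protease and inhibitor genes. Over all compared genes the share was 1.19%, but these lists hold long genes, with medians of 150, 65.5, 73.3, 103 and 42.2 kb in the same order. At such lengths the share over all genes was 0.94% from 20 to 50 kb, 0.31% from 50 to 100 kb and 0.083% above 100 kb. H3K27me3 only was found at 16, 31, 29, 14 and 15 genes of these lists in the same order. It was more frequent than both marks there, as it was over all compared genes (18.7% against 1.19%).

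Of the remaining lists, cadherin and protocadherin genes held 2 members among 40 compared, intergenic LINC RNA genes 3 of 415 and antisense RNA genes 5 of 303. Keratin genes carried H3K27me3 without H3K4me3 (29 of 45 compared), as did 9 of 15 olfactory receptor genes, and none carried both. In a list of genes measured by qPCR in the study, 12 of 17 carried H3K27me3 only. None of the 17 carried both marks, but their median length was 83.0 kb, and from 50 to 100 kb 0.31% of genes did. H3K27me3 only held for 18.7% of all compared genes. In housekeeping lists H3K4me3 only, which held for 32.1% of all compared genes, was found at 50 of 53 ribosomal protein genes, 50 of 57 respiratory chain genes, 24 of 29 proteasome genes and 26 of 29 genes of S phase and mitosis. No gene of these 4 lists carried both marks. Their median lengths were 8.41, 15.3, 18.2 and 19.9 kb in the same order. Both marks were carried by 3.78% of genes from 5 to 10 kb and 2.14% from 10 to 20 kb, so lists of this size would hold few or none. Of 431 numbered zinc finger genes 247 carried H3K4me3 only, 13 H3K27me3 only and 1 both marks, ZNF703 (0.85 and 5.30). The 14 PRC2 subunit genes included 8 with H3K4me3 only and 6 with neither mark. In all, 68 of the 253 genes belonged to one of the 33 lists.

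**Figure D3:**
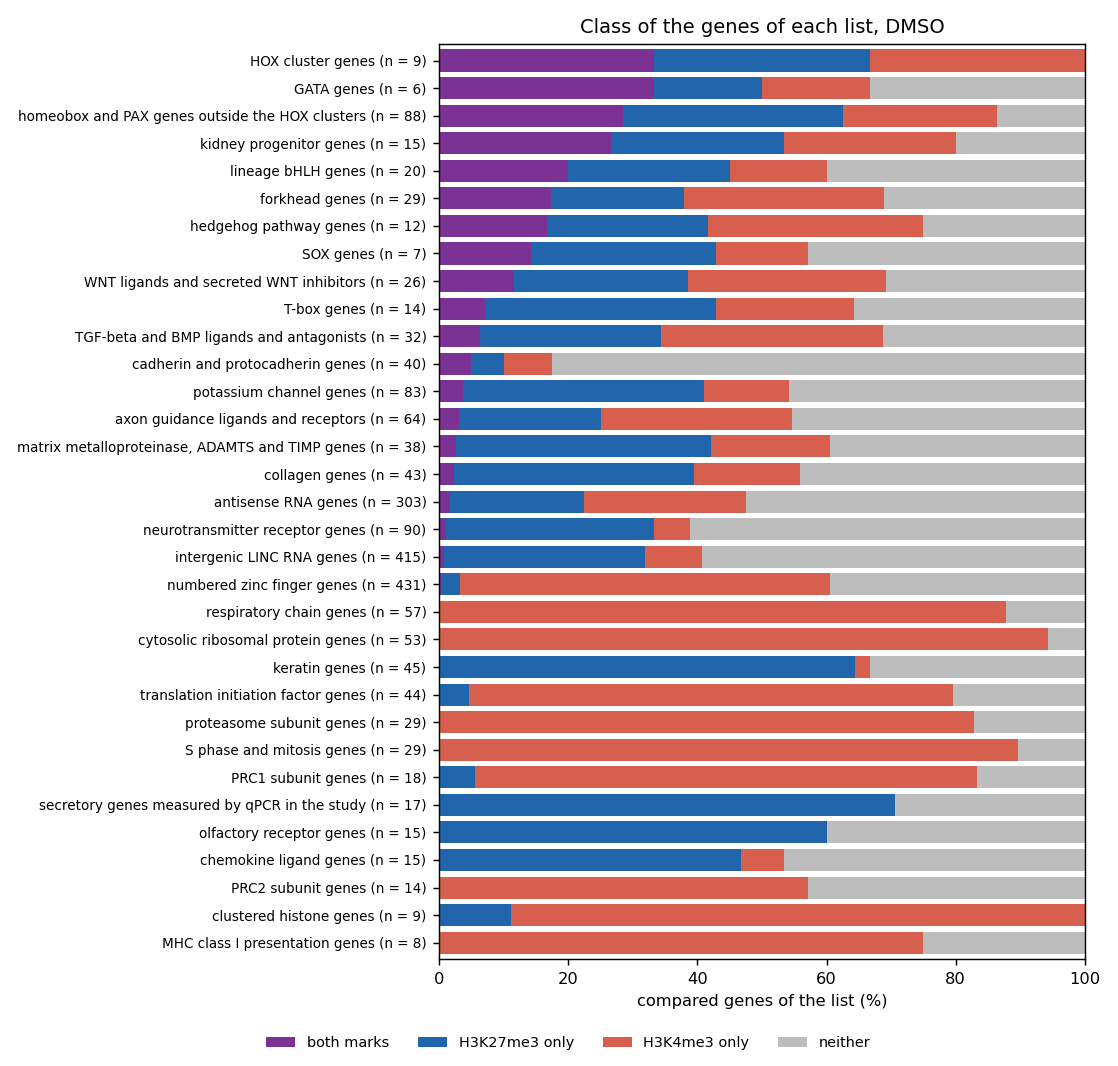
Share (%) of the compared genes of each list in the 4 classes in DMSO, ordered by the share with both marks; n is the number of compared genes. The purple part (both marks) covers 25 of 88 homeobox and PAX genes and 1 of 14 T-box genes, and none of 53 ribosomal protein genes.

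The promoters of genes with both marks were rich in CpG, like those with H3K4me3 only. CpG dinucleotides were counted in the 250 bases before the start of the canonical transcript for 14786 of 14825 compared protein-coding genes, all 203 with both marks included. The median number was 24 in genes with both marks, 23 with H3K4me3 only, 18 with neither and 11 with H3K27me3 only. A promoter was called island-like at a GC content of at least 50% and an observed to expected CpG ratio of at least 0.6. This held for 85.7% of genes with both marks (80.1% to 90.2%), 85.8% with H3K4me3 only, 46.6% with H3K27me3 only and 69.7% of all. Among genes of up to 20 kb the contrast was wider, with 84.3% (77.6% to 89.7%) of genes with both marks and 24.3% (20.6% to 28.2%) of those with H3K27me3 only. Of the H3K27me3-positive genes of up to 20 kb, H3K4me3 was found at 129 of 253 with an island-like promoter (51.0%, from 44.7% to 57.3%) and at 24 of 411 with another promoter (5.84%, from 3.78% to 8.56%). H3K27me3 itself had a median of 1.58 in the former and 1.19 in the latter.

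Promoters of 6 of the genes described above are printed to show this range, 3 with both marks, 2 with H3K27me3 only and 1 with H3K4me3 only. They were taken in rank order from the genes of each class, leaving out windows that overlap an annotated exon and POTEJ for its copies. The sequences were read from GRCh37 on the strand of the gene, and capitals mark each CpG. The SOX4 window (chr6:21593732-21593981, plus strand) holds 8 CpG, that of NKX3-2 (chr4:13546133-13546382, minus strand) 22 and that of KLF4 (chr9:110252051-110252300, minus strand) 25. The DBX1 window (chr11:20182022-20182271, minus strand) holds 15, that of BARHL2 (chr1:91182860-91183109, minus strand) 19 and that of SPRY1 (chr4:124317700-124317949, plus strand) 8.
SOX4: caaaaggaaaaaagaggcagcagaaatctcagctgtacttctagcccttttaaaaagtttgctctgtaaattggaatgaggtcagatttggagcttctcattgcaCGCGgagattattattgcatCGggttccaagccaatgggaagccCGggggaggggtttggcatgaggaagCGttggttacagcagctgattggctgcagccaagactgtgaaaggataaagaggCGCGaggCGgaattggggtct
NKX3-2: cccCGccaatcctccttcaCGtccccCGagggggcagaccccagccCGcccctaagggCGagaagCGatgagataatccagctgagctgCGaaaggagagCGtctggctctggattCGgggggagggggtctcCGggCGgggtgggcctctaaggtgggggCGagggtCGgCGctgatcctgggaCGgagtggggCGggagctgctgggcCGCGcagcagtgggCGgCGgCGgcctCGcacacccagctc
KLF4: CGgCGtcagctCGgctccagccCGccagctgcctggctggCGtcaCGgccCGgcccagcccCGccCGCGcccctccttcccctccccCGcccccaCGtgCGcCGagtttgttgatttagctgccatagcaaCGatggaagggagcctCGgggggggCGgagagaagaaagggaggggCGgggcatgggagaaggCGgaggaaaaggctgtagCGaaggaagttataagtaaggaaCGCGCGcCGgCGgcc
DBX1: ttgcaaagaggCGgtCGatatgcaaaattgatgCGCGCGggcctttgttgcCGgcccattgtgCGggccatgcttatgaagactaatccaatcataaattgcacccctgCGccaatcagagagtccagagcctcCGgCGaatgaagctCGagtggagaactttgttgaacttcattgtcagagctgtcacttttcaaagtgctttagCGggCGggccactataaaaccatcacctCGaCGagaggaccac
BARHL2: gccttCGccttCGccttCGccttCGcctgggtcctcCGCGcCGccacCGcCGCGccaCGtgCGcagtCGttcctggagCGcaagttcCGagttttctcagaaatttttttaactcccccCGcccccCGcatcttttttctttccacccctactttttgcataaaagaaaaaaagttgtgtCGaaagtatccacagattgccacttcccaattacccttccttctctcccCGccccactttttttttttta
SPRY1: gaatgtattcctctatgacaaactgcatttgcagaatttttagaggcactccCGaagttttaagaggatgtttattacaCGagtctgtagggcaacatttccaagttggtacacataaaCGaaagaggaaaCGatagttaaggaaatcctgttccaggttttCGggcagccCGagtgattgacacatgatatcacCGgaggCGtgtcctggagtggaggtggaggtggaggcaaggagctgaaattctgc

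Single genes thus departed from the medians in both directions. SOX4, with both marks high, has a GC content of 48.8% in this window and was not island-like, and neither were 28 other genes with both marks, among them SHH (7 CpG), TBR1 (4) and TCHH (2). DBX1 and BARHL2 were island-like and carried no H3K4me3 above 0.5. SPRY1, with one of the highest H3K4me3 values, has as few CpG in this window as SOX4. The window reaches no further than 250 bases from a single annotated start, and CpG downstream of it or at another start were not counted.

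The MAK683 libraries, which played no part in the choice of the classes beyond the input filter, show what became of these genes. In MAK683, 182 of the 253 genes were again positive for both marks (71.9%, from 66.0% to 77.4%), 62 for H3K4me3 only (24.5%), 6 for H3K27me3 only and 3 for neither. The other classes were kept more often, by 82.2% of genes with H3K27me3 only, 92.1% with H3K4me3 only and 96.4% with neither. Of the genes with H3K27me3 only, 14.9% had neither mark in MAK683. Genes with both marks numbered 305 in MAK683 (1.43%). Of these, 182 had both marks in DMSO, 112 H3K27me3 only, 7 neither and 4 H3K4me3 only. Those that joined from H3K27me3 only were 2.81% of that class (2.32% to 3.37%). Each library was scaled to its own total, so these values give the distribution of a mark over genes and not its absolute amount. That amount would be set by the spike-in described in the methods. The study, whose methods scale by this spike-in, reports that H3K27me3 was massively depleted across the genome of G401 by MAK683. A positive call in MAK683 is thus relative to a reduced mark, and does not show that the amount of H3K27me3 was kept.

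H3K27me3 over input was lower in MAK683 at 242 of the 253 genes, against 86.0% with H3K27me3 only and 40% of all compared genes. It was higher at 11, against 60% of all. The median difference was -0.49 (95% interval of the median from -0.56 to -0.45), that of genes with H3K27me3 only was -0.21, and that of all compared genes was 0.098. A fall of at least 1 was seen at 31 of the 253 genes (12.3%), against 0.837% of all, and with both inputs summed as the denominator at 5 (1.98%), against 0.263%. H3K4me3 over input had a median difference of 0.083 (0.023 to 0.15), against 0.15 in genes with H3K27me3 only, -0.18 in genes with H3K4me3 only and 0.014 in all. H3K4me3 over input was higher at 149 of the 253 genes (58.9%), against 72.5% with H3K27me3 only and 52.2% of all compared genes. A rise of at least 1 was seen at 14 (5.53%), against 0.884% of all, and over both inputs at 19 (7.51%), against 0.696%.

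The input itself moved with the classes. Its log2 difference between MAK683 and DMSO had a median of 0.16 in genes with both marks and 0.0018 in all genes, and a high MAK683 input lowers both marks over input. With both inputs summed as the common denominator, the median difference of genes with both marks was -0.38 for H3K27me3 and 0.19 for H3K4me3. In the same terms it was -0.17 for H3K27me3 in genes with H3K27me3 only and -0.17 for H3K4me3 in genes with H3K4me3 only. For H3K4me3 in genes with H3K27me3 only it was 0.17, close to the 0.19 of genes with both marks. Genes of up to 20 kb with an H3K27me3 value above 2 in DMSO differed less between the classes, with -0.46 for 67 genes with both marks and -0.32 for 79 with H3K27me3 only. Among genes of any length with H3K4me3 between 0.5 and 1, H3K4me3 differed by a median of 0.38 in 84 genes with both marks and -0.12 in 1851 with H3K4me3 only. Above 3 the medians were -0.033 in 24 genes with both marks and -0.25 in 762. The part of the choice of genes by their DMSO values in these differences was not tested. With other scales between libraries the sign of the H3K4me3 median turned, as given under the dependence on processing.

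**Figure D4:**
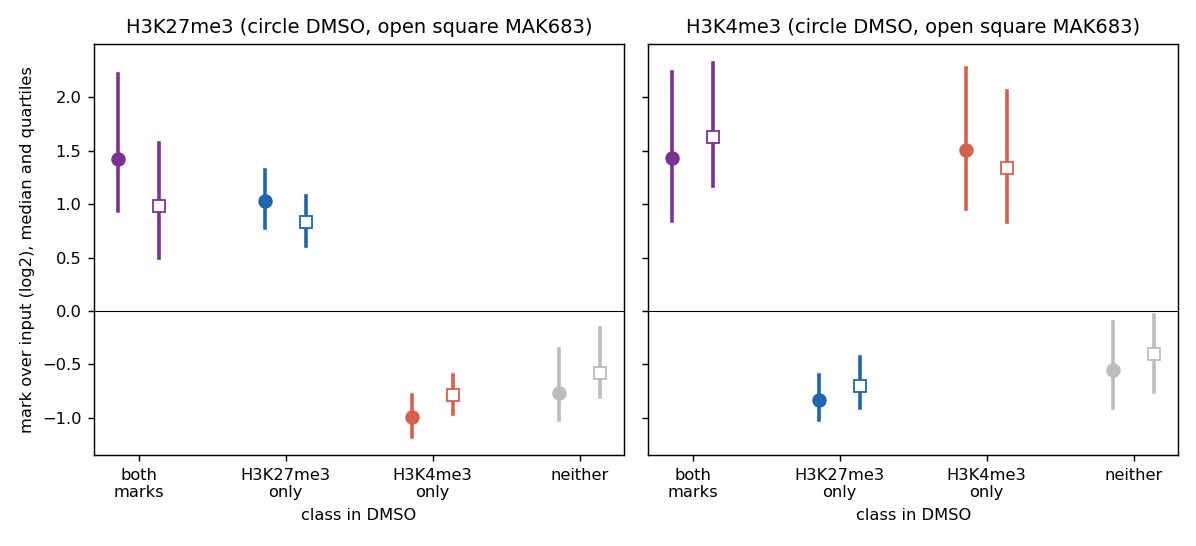
Median (symbol) and quartiles (bar) of H3K27me3 (left) and H3K4me3 (right) over input on the log2 scale, for the 4 classes set in DMSO, in DMSO (filled circles) and MAK683 (open squares). In genes with both marks the H3K27me3 median goes from 1.42 to 0.98 and the H3K4me3 median from 1.43 to 1.63.

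Single genes took different courses. The largest rise of H3K4me3 over input among genes with both marks was at EN2, a homeobox gene of the midbrain and hindbrain (chromosome 7, 155250824 to 155257526). Its H3K4me3 counts were 223 and its input counts 95 in DMSO, against 797 and 93 in MAK683, and its log2 value went from 0.89 (0.54 to 1.26) to 3.08 (2.78 to 3.42). H3K27me3 over input there was 2.29 in DMSO and 2.08 in MAK683, each relative to its library total and not an absolute amount. S1PR1, a sphingosine phosphate receptor, and PLK2, a polo-like kinase, went from 1.06 to 2.67 and from 0.93 to 2.54 in H3K4me3, with H3K27me3 at 2.05 and 1.43 in MAK683. At TFAP2C both marks moved, with H3K27me3 going from 3.17 to 1.93 and H3K4me3 from 1.08 to 2.29. DMRTA1 and MEX3B differed by 1.22 and 1.19 in H3K4me3, and by 0.92 and 0.84 over both inputs.

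LHX1, a LIM homeobox gene of kidney and head development (chromosome 17, 35294084 to 35301912), had the largest fall of H3K27me3 over input among the genes with at least 50 DMSO input counts. Its H3K27me3 counts were 144 in DMSO and 33 in MAK683, and the log2 value went from 1.32 to -0.66. H3K4me3 over input went from 4.18 to 3.43, so that LHX1 was positive for H3K4me3 only in MAK683. TUBB2B had 428 and 185 H3K27me3 counts and 64 and 141 input counts, so its difference of -1.60 holds a 0.92 rise of the input. NRGN, FOXF2 and TFAP2C had differences of -1.35, -1.25 and -1.24, and their input was higher by 0.43, 0.72 and 0.52. Over both inputs the differences were -1.58 at LHX1, -0.68 at TUBB2B, -0.92 at NRGN, -0.53 at FOXF2 and -0.71 at TFAP2C. H3K27me3 over input was not lower at SHISA3 (1.33 and 1.58), FOXL1 (0.54 and 0.74), CD83, INSM2 and SCN3B. The input was lower in MAK683 at all of these but FOXL1, and over both inputs H3K27me3 was 0.33 higher at FOXL1 and lower at SHISA3 (-0.10), CD83 (-0.16), INSM2 (-0.23) and SCN3B (-0.21).

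Among genes with H3K27me3 only that had both marks in MAK683, EMX2 went from -0.19 to 1.73 in H3K4me3 (interval in MAK683 from 1.31 to 2.20), with 61 and 189 counts. SFRP2, a secreted WNT inhibitor, went from -1.05 to 0.56 and BARHL2 from -0.33 to 0.51, and their H3K27me3 values in MAK683 were 2.52, 2.02 and 1.98 in this order. TBX3, a T-box repressor (chromosome 12, 115108060 to 115121980), went from 172 to 660 H3K4me3 counts between DMSO and MAK683, with values of -0.55 and 1.59, and H3K27me3 values of 1.60 and 1.23. DBX1 (0.10 and 0.41), TFAP2B (-0.57 and -0.30) and GATA4 (-0.34 and 0.31) stayed below 0.5 in H3K4me3. LMO2 and KCTD12, just outside the class in DMSO, had H3K4me3 values of 1.25 and 1.49 in MAK683, and SPATA4 had 0.44.

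HOXD13, a regulator of distal limb patterning (chromosome 2, 176957449 to 176960672), carried both marks with 332 H3K27me3, 149 H3K4me3 and 48 input counts, and values of 2.58 (2.16 to 3.07) and 1.28 (0.82 to 1.80). WNT6 lay close to the threshold for H3K4me3 (0.51, from 0.25 to 0.78) and GATA3 above it (0.78, from 0.57 to 0.99). FOXO1 was positive for H3K27me3 only, with 0.69 and -0.15, in a gene of 111 kb with 47.7% of its span unshared. Moderate H3K4me3 is described by the study at FOXO1, TBX3 and GATA4, which were all called H3K27me3 only here. It also reports H3K4me3 at most of its H3K27me3-high genes that rose with MAK683. The calls here rest on whole-gene counts, which dilute a narrow promoter peak. H3K4me3 at these promoters was not tested. HOXD1 and HLA-B, with 51 and 63 input counts in both treatments together, were under the filter, and CDKN2A is listed at 0 in all 6 libraries, so their class was not determined. The study shows ChIP-seq tracks at CDKN2A in G401 and its induction by MAK683, so the gene is present. Why it was counted at 0 was not tested.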

How the data were processed

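H3K27me3, H3K4me3 and input ChIP-seq of G401 cells in DMSO or MAK683 were used (1 library for each mark and treatment). The authors trimmed reads with Trim Galore 0.4.4, aligned them to hg19 with Bowtie2, removed repeat sequences with Picard 2.23.6 and deposited raw counts per gene from featureCounts. The counts carry no spike-in scaling, and the gene annotation behind them is not given in the sources used here.

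CPM, ratios and their exact intervals (Clopper-Pearson on the share of mark counts, level 95%) were computed with Python 3.11.15, numpy 2.4.6, pandas 2.3.3, scipy 1.17.1 and matplotlib 3.10.9, and TMM factors with edgeR 4.0.16 in R 4.3.3, as a scale only. Medians have 95% intervals from binomial ranks. At these depths 3 counts were worth between 0.141 and 0.225 CPM. Symbols were matched to GENCODE 44 on GRCh37, the build of hg19. Of 21263 compared genes, 76.3% matched, and lengths, types and positions cover these. The classification was tested on simulated data.

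Members, thresholds and gene lists were chosen with earlier results of these data known. The genes named were the 15 with both marks and the highest smaller log2 value, the 6 of each single-mark class with the largest difference between marks, 3 with neither mark and the most input, 3 on each side of the threshold, the largest changes in MAK683, up to 4 per list, and genes the study names. Except in the list and study groups, and among genes with neither mark, they are protein-coding with at least 50 DMSO input counts and at least 50% of the span unshared. Alternatives were other pseudocounts, thresholds, filters, scales, inputs and gene sets. Some genes are not reported here.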

Additional observations from a re-analysis of the deposited data

How the results depend on the processing

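No paired analysis was possible because each treatment and antibody had 1 library. The count of genes with both marks, their share of H3K27me3-positive genes and their median changes in MAK683 gave 74 values under 19 alternatives. Of these, 36 stayed within the interval of the main value or, for counts, within 1.5 times, 34 moved further and 4 changed sign. The 253 genes became 119 at a threshold of 1, 59 at a summed input of at least 500, 159 with lower bounds at the threshold, 162 among genes of at most 20 kb and 54 above, and 1135 with no input filter. They became 454, 523 and 638 with median-of-ratios factors, TMM factors and the median log2 set to 0, and all 253 remained under each of these 3 scales. With H3K4me3 over the other input 222 of 253 remained, with H3K27me3 over the other input 230. The share of 5.97% became 7.22% at a threshold of 0.25, 5.22% at 1, 14.2% with no input filter, 2.32% at a summed input of 500, 7.41%, 7.99% and 9.54% with the 3 scales, 7.80% on autosomes, 8.36% in protein-coding genes, 7.86% in mostly unshared genes, 19.5% up to 20 kb, 2.72% above and 4.47% with lower bounds. The median H3K27me3 change of -0.49 became -0.61 at a threshold of 1, -0.90 with no filter, -0.39 at a summed input of 500, -0.61 with median-of-ratios and with TMM, -0.39 over both inputs, -0.28 over the other input, -0.40 above 20 kb and -0.39 with classes set in MAK683. The median H3K4me3 change of 0.083 became 0.19 over both inputs, 0.29 over the other input and 0.47 with classes set in MAK683. It turned negative with no filter (-0.50), with median-of-ratios (-0.13), with TMM (-0.094) and with the median set to 0 (-0.16), where the classes hold other genes as well, and the cause was not tested. Depth limits short genes most, since they have few input counts.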

Other observations

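The following genes carried both marks in DMSO and were chosen after their values were seen. ULBP1, ULBP2 and ULBP3, which encode ligands of the NKG2D receptor of natural killer cells, lie within chromosome 6, 150263150 to 150390257 (GRCh37). Log2 values of H3K27me3 and H3K4me3 were 2.27 and 0.62 at ULBP1 (701, 248 and 127 counts of H3K27me3, H3K4me3 and input), 1.59 and 1.94 at ULBP2 (183, 260 and 53) and 2.02 and 1.34 at ULBP3 (271, 187 and 58). Members of this family are related in sequence and can share reads, so the division of counts among them is uncertain. In MAK683 their H3K27me3 values were 1.53, 0.69 and 1.09.

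CYP26A1 (1.43 and 2.78) and CYP26B1 (1.23 and 1.24), which degrade retinoic acid, both carried the 2 marks. The third CYP26 gene compared carried neither. Among 17 compared FGF genes, 3 carried both marks, 4 H3K27me3 only, 4 H3K4me3 only and 6 neither. Those with both were FGF3 (2.58 and 0.69), FGF9 (1.18 and 0.55) and FGF19 (1.32 and 2.05). Of 5 Notch ligand genes, DLL1 (1.92 and 1.43) and DLL4 (0.83 and 2.24) carried both, and the other 3 fell in the other classes, 1 in each. CYP26A1 has 10.5% and DLL1 34.9% of its span unshared. In the HOXD region of chromosome 2, EVX2 (2.96 and 1.20) and the antisense gene HOXD-AS2 (1.86 and 1.66) were members beside HOXD11 and HOXD13, and 3 of 4 compared Iroquois genes were members, IRX3 (3.66 and 3.15), IRX4 (3.03 and 0.89) and IRX5 (2.96 and 0.71).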
